A study of Mus musculus with 42 samples.

Results

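The genes described here are 10 parts of the NF-kB pathway: the subunit genes Nfkb1, Nfkb2, Rel and Relb, the inhibitor gene Nfkbia, the nuclear regulators Nfkbid, Nfkbiz and Bcl3, and the genes of the ubiquitin enzymes Tnfaip3 and Birc3. They were taken by symbol from a list of NF-kB genes. All 10 were among the 54353 genes shared by 34 bulk RNA-seq libraries of mouse uterine tissue-resident NK (trNK) cells, and all 10 were found in 1 pooled single-cell data set.

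NF-kB proteins are transcription factor dimers that inhibitors of the IκB family hold in the cytoplasm. Receptors for TNF family ligands, IL-1 family cytokines and microbial products activate a kinase complex that marks the inhibitor for destruction, and the dimers then enter the nucleus. Many of the genes they switch on, Nfkbia and Tnfaip3 among them, encode proteins that stop the signal again, and in NK cells the pathway serves cytokine production and survival.

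The libraries came from 4 experiments with 2 libraries per group. The gestation experiment held trNK cells of virgin mice and of mice at gestational days (gd) 6.5 and 8.5. The subset experiment held trNK cells of gd8.5 split by surface CD55 and 4-1BB into trNK-V (both low), trNK-D (both intermediate) and trNK-T (both high). Both used cells sorted as CD45+NK1.1+NKp46+CD49a+CXCR6- straight from digested uteri, with no treatment. The inhibitor experiment held trNK-V cells of gd6.5 mice cultured for 72 h alone, with 20 ng/ml IL-21, or with IL-21 and 1 µM Stattic, an inhibitor of STAT3, and then sorted as live NK1.1+ cells. That Stattic dose is the one in the labels, whereas the methods print 1 mM. The time course held cells labelled 0, 6, 24 or 72 h, each with and without 20 ng/ml IL-21. The study describes them as trNK-V cells of gd6.5 mice. The medium of both cultures held IL-15, at 10 ng/ml by the methods and the sample characteristics, whereas the treatment protocol of the time course gives 15 ng/ml. Mice were C57BL/6, and 8 to 12 weeks old by the methods. The titles of the gestation, subset, inhibitor and single-cell samples say wild-type, and the time course was labelled WT. No group carried a mutation. What the 0 h libraries labelled with IL-21 had received before lysis is not stated in the labels. Chromatin accessibility samples of the series were not analysed here.

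Each library held 11861343 to 66462748 counts, and no 2 libraries were identical. The labels do not say whether the libraries of a group came from separate animals or cultures, and the study speaks of independent experiments without assigning libraries to them, so the p-values measure the spread between these libraries only. Summed RPKM (reads scaled by exon length and by TMM-adjusted library total) of the trNK markers Ncr1, Klrb1c, Eomes and Itga1 were 248 to 2150. The summed macrophage markers were at most 14.2, B cell markers at most 18.5 and neutrophil markers at most 1.31. Stromal markers reached 41.7 in trNK-V replicate 1 and at most 3.29 in the other libraries, endothelial markers ran from 1.10 to 50.6, and the summed T cell markers ran from 14.4 to 274 with at most 2 of their genes at 0. The erythrocyte markers summed to 230 in virgin replicate 2 and 832 in gd8.5 replicate 2. A gene was tested where its RPKM was above 10 in both libraries of any group of its experiment, and it was called where edgeR gave a fold change of more than 2 with an adjusted p under 0.05.

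The genes lie on mm10 at chr3:135584655-135691547 (Nfkb1), chr19:46304737-46312090 (Nfkb2), chr11:23736847-23770970 (Rel), chr7:19606217-19629438 (Relb), chr12:55489410-55492647 (Nfkbia), chr7:30421732-30428746 (Nfkbid), chr16:55811375-55838899 (Nfkbiz), chr7:19808462-19822770 (Bcl3), chr10:19000910-19015657 (Tnfaip3) and chr9:7848699-7873186 (Birc3). Nfkb2 and Nfkbid lie on the plus strand, and the others lie on the minus strand. The exons of Bcl3 overlap those of Gm16175, on the opposite strand, over 161 bases, which is 6.51% of the counted length. Nfkb2 overlaps Psd over 4 bases (0.12%). Without strand, reads of such overlaps cannot be told apart.

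The promoters of these genes were searched for sites that NF-kB dimers bind. RefSeq promoters (GRCm38.p6, which is mm10) were matched for 7 of the 10 genes, with no entry for Nfkb1, Relb and Nfkbiz. The κB consensus, a motif of 10 letters, was searched on both strands in the 250 bases before each start. It was present for 5 of the 7 genes (Nfkb2, Rel, Nfkbia, Nfkbid and Tnfaip3). It was in 7 of the 12 windows of the 7 genes and in 7.25% of all 32851 windows. The following 30-base stretches, and for the Tnfaip3 site nearest the start 22 bases, show the match in capitals, read 5′ to 3′ on the strand of the gene.
Nfkbia, chr12:55492657-55492686, minus strand: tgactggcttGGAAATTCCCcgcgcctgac
Rel, chr11:23771042-23771071, minus strand: cgtaagcagcGGGAAATCCCcccccctccc
Nfkb2, chr19:46304688-46304717, plus strand: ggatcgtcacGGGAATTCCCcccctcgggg
Nfkbid, chr7:30422170-30422199, plus strand: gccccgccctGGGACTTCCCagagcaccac
Tnfaip3, chr10:19015516-19015545, minus strand: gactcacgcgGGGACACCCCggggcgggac
Tnfaip3, chr10:19015411-19015432, minus strand: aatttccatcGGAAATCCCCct
The matches began 29 bases before the start in Nfkbia, 92 in Rel, 39 in Nfkb2, and 125 and 12 in Tnfaip3. In Rel and Nfkb2 a further match on the opposite strand overlapped the one shown. The Nfkb2 sites not shown began 11 bases before the same start, and 236 and 225 bases before its other 2 starts. The Nfkbid match shown lies 226 bases before the second of its 3 listed starts, and another began 181 bases before that start.

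The motif TTCNNNGAA, which STAT dimers bind, was searched because the cultures tested IL-21 and a STAT3 inhibitor. It was present for 2 of the 7 genes, Nfkb2 and Nfkbid. It was in 3 of the 12 windows of the 7 genes and in 7.02% of all windows. Its match in front of Nfkb2 overlapped no κB match shown above, and the Nfkbid match shown lies before another start than its κB matches, 167 bases from it, as does a further one 139 bases before the third start. The window of Bcl3, the gene called with IL-21 in both cultures, is shown after them because it held neither motif in these letters.
Nfkb2, chr19:46304579-46304607, plus strand: tgggcgagccTTCCCCGAAaggggcgcgc
Nfkbid, chr7:30421554-30421582, plus strand: aagcacctacTTCCAGGAAgaccaagtaa
Bcl3, chr7:19822756-19823005, minus strand: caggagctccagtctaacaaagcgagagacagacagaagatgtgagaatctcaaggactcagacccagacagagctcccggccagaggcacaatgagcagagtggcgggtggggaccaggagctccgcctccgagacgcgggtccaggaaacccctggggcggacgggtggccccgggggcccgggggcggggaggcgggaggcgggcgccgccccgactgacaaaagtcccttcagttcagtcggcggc
A match describes the letters only, and no match says nothing of a factor's binding elsewhere.

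Among the subunits, Nfkb1, the gene of the precursor whose processed form lacks an activation domain, was the steadiest in cells taken from the uterus. Its RPKM was 11.03 and 13.9 in the virgin libraries, 11.7 and 13.1 at gd6.5, then 13.9 and 14.2 at gd8.5. In the subsets it was 15.7 and 13.7 in trNK-V, 13.5 and 18.4 in trNK-D, and 15.4 and 16.2 in trNK-T. Its log2 fold changes in these 2 experiments lay between −0.02 and 0.18, and none passed the test.

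Nfkb2, whose precursor feeds the alternative pathway, varied more between replicates than between groups. Virgin libraries had an RPKM of 15.0 and 32.7, gd6.5 libraries 18.7 and 22.8, and gd8.5 libraries 23.3 and 18.4. The trNK-V libraries had 20.0 and 31.1, trNK-D 25.5 and 15.8, and trNK-T 29.9 and 12.4. All groups overlapped in both experiments. Relb, the partner of the Nfkb2 product, stood at 15.3 and 17.2 in virgin mice, 9.43 and 11.8 at gd6.5, then 20.5 and 13.0 at gd8.5. Both gd6.5 libraries were below all others of that experiment for Relb, with a log2 fold change from virgin of −0.61 (SE 0.28) and an adjusted p of 0.184. In the subsets Relb was 12.2 and 18.7 in trNK-V, 15.4 and 14.5 in trNK-D, and 11.9 and 7.24 in trNK-T.

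Rel encodes c-Rel, an activating subunit prominent in lymphocytes. Its RPKM was 8.10 and 19.1 in virgin mice, 5.38 and 5.54 at gd6.5, then 7.83 and 5.30 at gd8.5. No group had both libraries above the minimum, so Rel was not tested there. In the subsets it was 11.1 and 10.8 in trNK-V, 7.94 and 6.21 in trNK-D, and 6.21 and 3.92 in trNK-T, so that both trNK-D and trNK-T were below trNK-V without overlap. From trNK-V to trNK-T the log2 fold change was −1.11 (SE 0.29) with an adjusted p of 0.0273, and Rel was called lower. Rel passed the filter only through trNK-V, the group where it was high.

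Nfkbia encodes IκBα, the inhibitor that NF-kB itself induces, and it had the highest RPKM of the 10 genes in all 12 libraries taken from the uterus. Virgin libraries had 199.6 and 405, gd6.5 libraries 107 and 147, and gd8.5 libraries 222 and 197. Both gd6.5 libraries were thus below all others, while virgin and gd8.5 overlapped. The log2 fold change from virgin to gd6.5 was −1.25 (SE 0.35) with an adjusted p of 0.0681, which missed the threshold. In the subsets the values were 190.2 and 499 in trNK-V, 182 and 170.4 in trNK-D, and 156 and 39.0 in trNK-T. All trNK-T libraries were below all trNK-V libraries, with −1.82 (SE 0.68) on the log2 scale and an adjusted p of 0.0762.

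Nfkbid and Nfkbiz encode atypical IκB proteins that act in the nucleus on NF-kB dimers bound to DNA. Nfkbid was 32.7 and 23.6 RPKM in virgin mice, 15.5 and 17.1 at gd6.5, then 14.4 and 12.9 at gd8.5. Both pregnant groups were below the virgin libraries without overlap, with log2 fold changes of −0.79 (SE 0.25, adjusted p = 0.088) and −1.04 (SE 0.25, adjusted p = 0.182). Over the subsets Nfkbid went from 20.9 and 35.9 in trNK-V to 13.4 and 13.3 in trNK-D and 10.5 and 9.66 in trNK-T. No library of 1 subset overlapped with another, and from trNK-V to trNK-T the fall of 1.49 on the log2 scale (SE 0.32, adjusted p = 0.0162) was called.

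Nfkbiz had the largest fold change from trNK-V to trNK-T of the 9 genes tested. Its RPKM was 14.03 and 25.6 in trNK-V, 11.6 and 6.90 in trNK-D, and 4.26 and 1.44 in trNK-T, again with no overlap between subsets. From trNK-V to trNK-T the log2 fold change was −2.79 (SE 0.59, adjusted p = 0.0156) and was called, and from trNK-D to trNK-T it was −1.69 (SE 0.57, adjusted p = 0.154) and was not. The filter was passed through trNK-V alone. In the gestation libraries Nfkbiz was 9.81 and 6.87 in virgin mice, 3.22 and 4.59 at gd6.5, then 5.35 and 5.59 at gd8.5, too low to be tested, and all libraries of pregnant mice were below those of virgin mice.

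Bcl3, a nuclear IκB protein that can turn dimers without an activation domain into activators, had an RPKM of 14.9 and 28.3 in virgin mice, 15.96 and 9.26 at gd6.5, then 4.82 and 4.80 at gd8.5. The gd8.5 libraries were below the other 4 without overlap. The log2 fold change from virgin to gd8.5 was −2.17 (SE 0.42, adjusted p = 0.120), and from gd6.5 to gd8.5 it was −1.39 (adjusted p = 0.128), so neither passed, and the filter was passed through the virgin group alone. In the subsets the 2 libraries of each group lay apart for Bcl3, at 6.58 and 11.5 in trNK-V, 20.3 and 4.62 in trNK-D, and 15.7 and 6.38 in trNK-T, and it was not tested there.

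Tnfaip3 encodes a ubiquitin-editing enzyme that shuts down signalling from TNF and Toll-like receptors. It stood at 70.6 and 63.7 RPKM in virgin mice, 27.4 and 51.4 at gd6.5, then 26.1 and 22.6 at gd8.5. Each group was below the one before it without overlap, and from virgin to gd8.5 the log2 fold change was −1.47 (SE 0.30, adjusted p = 0.137). In the subsets it was 51.0 and 88.0 in trNK-V, 43.3 and 30.5 in trNK-D, and 40.3 and 11.3 in trNK-T, with −1.43 (SE 0.57, adjusted p = 0.0929) from trNK-V to trNK-T. Birc3, the gene of a ubiquitin ligase that acts in TNF receptor complexes, was 14.5 and 28.2 in virgin mice, 9.58 and 13.4 at gd6.5, then 21.3 and 16.3 at gd8.5. In trNK-V it was 18.1 and 25.8, in trNK-D 14.6 and 14.4, and in trNK-T 14.8 and 9.54, and the fall of 0.85 from trNK-V to trNK-T had an adjusted p of 0.0532.

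**Figure D1:**
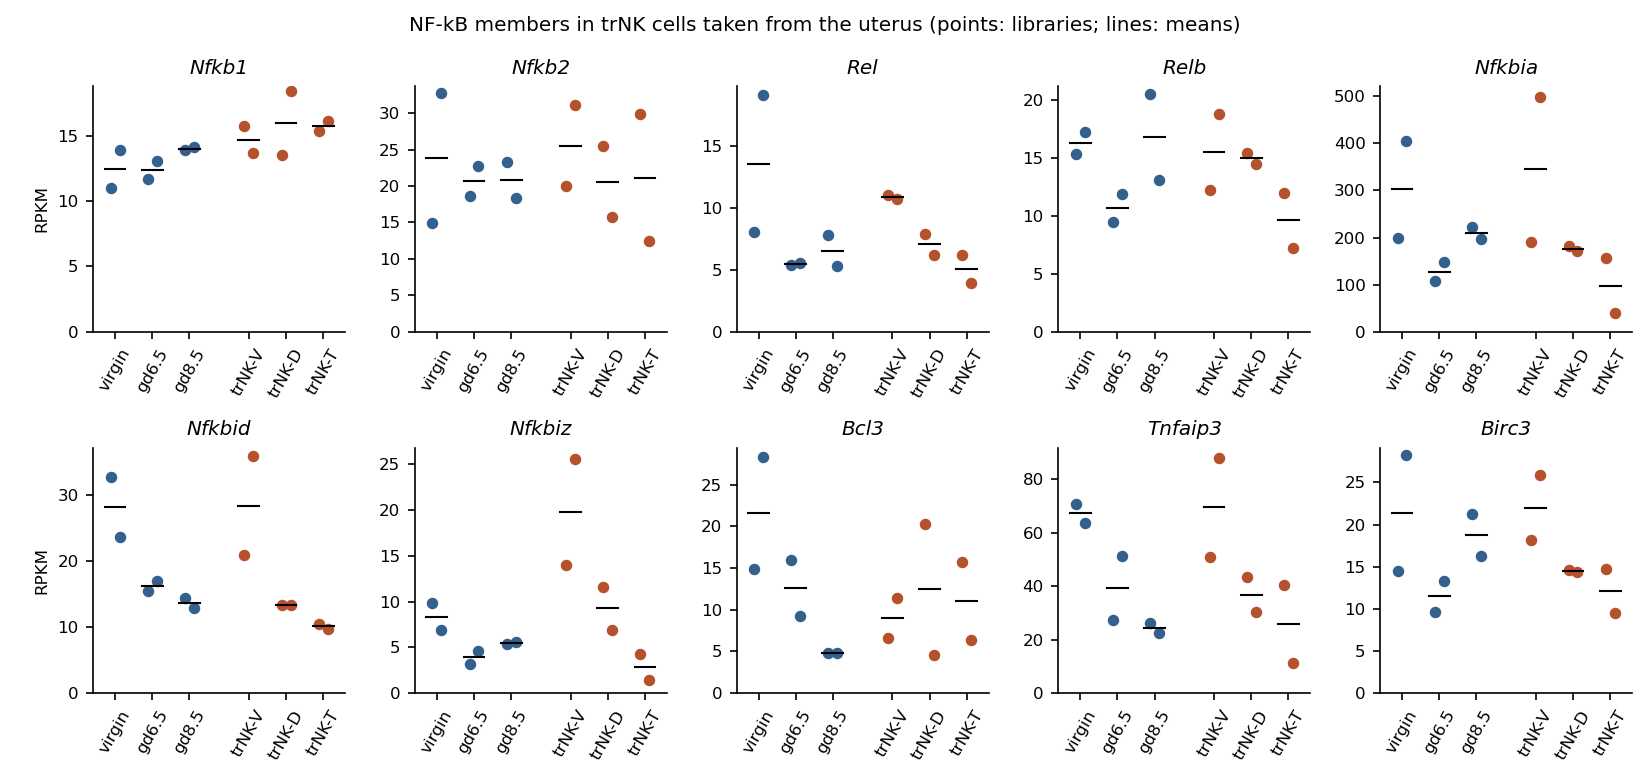
RPKM (vertical axes, linear, from 0) of the 10 genes in trNK cells taken from the uterus, by group of the gestation experiment (blue) and the subset experiment (orange); points are the 2 libraries of a group and lines their means. Nfkbiz goes from 14.03 and 25.6 in trNK-V to 4.26 and 1.44 in trNK-T, while Nfkb1 stays between 11.03 and 18.4 in all 12 libraries.

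Over the whole list, edgeR called 0 of the 8 genes tested for gd6.5 against virgin, where 6.22% of all 4504 genes tested were called. Of the 8, 4 had an unadjusted p below 0.05, and DESeq2 called 1 of them (Nfkbia). All 8 had a log2 fold change below 0, and the median was −0.77 against −0.01 for all genes. Without overlap, 5 of the 8 were lower, as 28.2% of all genes were. Bcl3 had passed the filter through virgin alone, and Relb and Birc3 through virgin and gd8.5 but not gd6.5. These counts and this median are therefore not read against those of all genes. For gd8.5 against virgin, edgeR called 0 of 8 (0.377% of all genes), with 3 at an unadjusted p below 0.05, while DESeq2 called these 3 (Bcl3, Nfkbid and Tnfaip3). The median was −0.36, and 3 of 8 were lower without overlap (23.2% of all genes). Bcl3, 1 of these 3, had passed the filter through virgin alone, so that count is not read against its share. For gd8.5 against gd6.5, edgeR called 0 of all genes (0%), with 1062 genes, 1 of them on the list, at an unadjusted p below 0.05, while DESeq2 called Bcl3. Of the 8, 3 were lower and 4 higher without overlap, where 35.0% and 34.1% of all genes were, so little can be read from such a gap. These comparisons share libraries. Without virgin replicate 1, Birc3 and Nfkbia were called lower at gd6.5 and Bcl3 at gd8.5. Without virgin replicate 2, Nfkbid was called lower at gd6.5 and Bcl3, Nfkbid and Tnfaip3 at gd8.5. Without either, Bcl3 was called lower at gd8.5 than at gd6.5. The virgin replicates differed, since Nfkbia, Bcl3, Birc3, Nfkb2 and Rel were about 2-fold higher in replicate 2, and the T cell markers summed to 274 RPKM in replicate 1 and 29.6 in replicate 2. The deposited counts of virgin replicate 1 also listed 55573 genes, where those of replicate 2 listed 54446. The part of this in the gap was not tested.

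For trNK-D against trNK-V, edgeR called 0 of the 9 genes tested (0.32% of all 4683 genes tested), with 1 at an unadjusted p below 0.05, and DESeq2 called Nfkbid. Of the 9, 6 were lower without overlap (26.9% of all genes). For trNK-T against trNK-V, 3 of 9 were called lower (Nfkbiz, Nfkbid and Rel), where 13.1% of all genes were called lower and 21.2% in either direction. Nfkbiz and Rel had passed the filter through trNK-V alone, the group where they were high, so the count is not read against that share. With filterByExpr, Nfkbiz was the only one of the 3 still called (adjusted p = 0.0421), and Nfkbid (0.0544) and Rel (0.0836) were not. The median of the 9 was −1.11, that of Rel, against −0.02 for all genes, and 7 of 9 were lower without overlap (38.3% of all genes). Rel and Nfkbiz are among these 7, and among the 6 for trNK-D. These values are therefore not read against those of all genes either. Between trNK-T and trNK-D edgeR called 0 of 9 (1.75% of all genes), with 1 at an unadjusted p below 0.05, and DESeq2 called Nfkbiz. There 5 of 9 were lower without overlap, where 30.0% of all genes were. Of these, Rel and Nfkbiz had passed the filter through trNK-V alone, and Relb and Nfkbid through trNK-V and trNK-D. For Rel the gap was that of 6.213 RPKM in trNK-T against 6.214 in trNK-D. This count is therefore not read against its share either. With 1 library left out, the log2 fold change from trNK-V to trNK-T ran from −3.13 to −0.96 for Nfkbia. For Tnfaip3 it ran from −2.61 to −0.79, and both were lowest without trNK-T replicate 1. The call for trNK-T rested on single libraries: without trNK-V replicate 2, or without trNK-T replicate 2, 0 of 9 were called, and Nfkbiz stood at −2.29 (adjusted p = 0.0753) or −2.22 (adjusted p = 0.0599).

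Genes known to rise during tissue digestion were measured beside these genes. The 14 such genes, Fos, Jun, Egr1, Zfp36 and heat shock genes among them, summed to 2100 and 3920 RPKM in trNK-V, 1290 and 1020 in trNK-D, and 640 and 252 in trNK-T, and 10 of the 12 tested were called lower in trNK-T than in trNK-V. The summed T cell markers moved the same way, at 130 and 126 in trNK-V, 41.5 and 77.9 in trNK-D, and 22.3 and 14.4 in trNK-T. So did the trNK markers themselves, at 1360 and 1400 in trNK-V, 1170 and 992 in trNK-D, and 800 and 642 in trNK-T. The 4 endothelial markers went the other way, from 20.7 and 19.7 in trNK-V to 26.6 and 34.7 in trNK-D and 50.2 and 50.6 in trNK-T, with 0 to 3 of them at 0. In the gestation libraries the digestion genes summed to 1750 and 1460 in virgin mice, 976 and 1230 at gd6.5, then 995 and 899 at gd8.5. Of the 12 tested at gd6.5 against virgin, Jund was called lower (−2.26) and Hspa1a higher (1.08), both at an adjusted p of 0.0318, and Hspa1b (0.87), Jun (0.31) and Egr1 (0.31) were above 0 without a call. The median of the 12 was −0.40. At gd8.5 against virgin, 0 were called higher and 1 lower, Nr4a1 (−2.28, adjusted p = 0.0135), with a median of −0.98. Hspa1a and Hspa1b are near-identical copies whose reads may be shared. The part of digestion, or of the cells these markers stand for, in the levels of the NF-kB genes was not tested, and in bulk libraries fewer cells with a transcript and less of it per cell cannot be told apart.

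**Figure D2:**
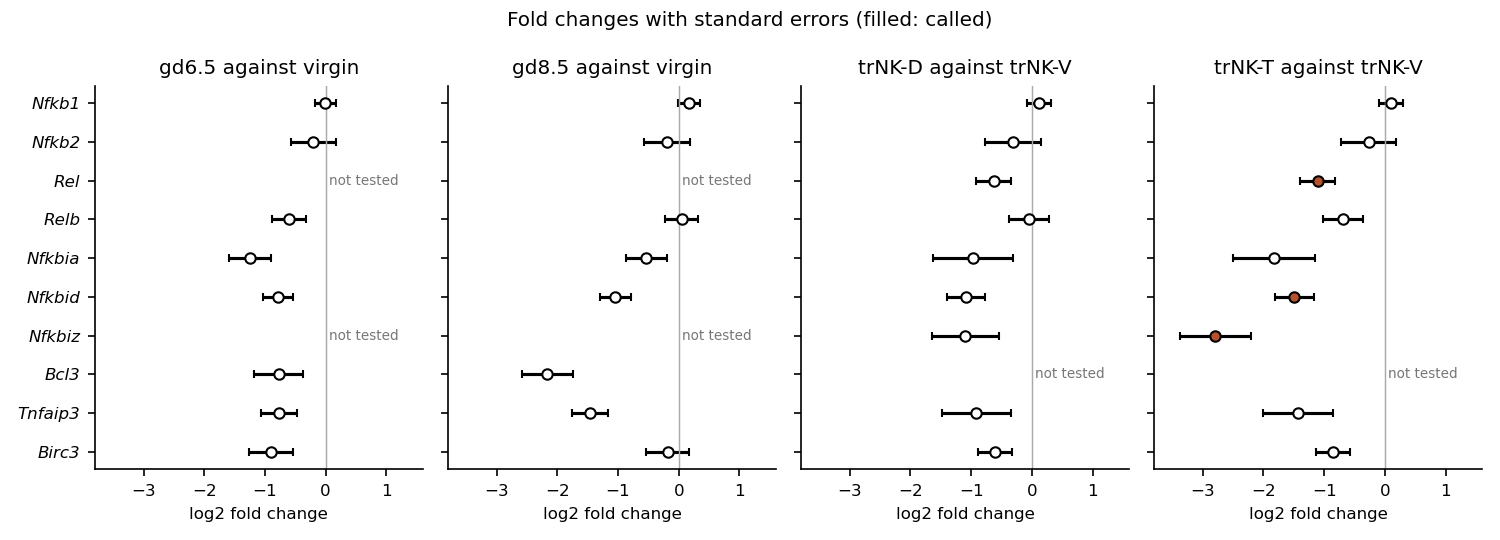
Log2 fold changes (horizontal axes) of the genes tested, 8 in each gestation panel and 9 in each subset panel, in 4 comparisons of cells taken from the uterus, with standard errors as bars; filled points were called in edgeR (fold change of more than 2, adjusted p under 0.05). Rel, Nfkbid and Nfkbiz are the 3 filled points, all for trNK-T against trNK-V, and Nfkb1 lies between −0.01 and 0.17 in the 4 panels.

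Other genes of the pathway, a list of 66 receptors, kinases, adaptors, ubiquitin enzymes and targets, were counted beside them. At gd6.5 against virgin, 0 of the 38 tested were higher and 5 were lower, where 3.22% and 3.00% of all genes were. The largest falls were those of Otulin, the gene of a deubiquitinase for linear chains (−3.40), and of the survival genes Bcl2a1d (−2.26) and Bcl2a1b (−1.80), near-identical copies whose reads may be shared. Otulin was 52.0 and 111 RPKM in virgin mice and 7.0 and 8.47 at gd6.5. It was under the minimum at gd6.5 and could not have passed the filter through that group. The pathway counts are therefore not read against those of all genes. At gd8.5, edgeR called 0 of the 38 against virgin (8 at an unadjusted p below 0.05) and 0 against gd6.5 (15).

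In trNK-T against trNK-V, 2 of the 41 pathway genes tested were higher and 15 were lower, where 8.07% and 13.1% of all genes were, and the median was −0.89 against −0.02 for all genes. Ltb, the gene of lymphotoxin beta, was 94.6 and 137 RPKM in trNK-V and 1.01 and 1.33 in trNK-T (log2 fold change −6.63). The chemokine gene Ccl3 was 117 and 269 against 0 and 3.84 (−6.72). Both were under the minimum in trNK-T and so could not have passed the filter through it. The pathway counts and median are therefore not read against those of all genes. Among the receptors, Cd27 (−4.08) and Il18rap (−4.17) were lower too. Both higher genes were Tnfrsf9 (2.91), which encodes 4-1BB and was used for the gate, and Ier3, an early response gene. Ier3 had 0 counts in both trNK-V libraries and 433 in the trNK-T libraries, at least 76.6-fold higher with 3 counts per library as the floor. Between trNK-T and trNK-D, Ltb (−3.38) and Cd27 (−2.27) were lower and Tnfrsf9 (1.37) was higher.

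In culture, Bcl3 was the called gene with IL-21, among the 6 of the 10 genes tested in the inhibitor experiment and the 2 tested in the time course. In the inhibitor experiment Bcl3 had an RPKM of 3.67 and 2.62 without IL-21, 25.7 and 35.7 with it, and 9.43 and 10.3 with IL-21 and Stattic. The 3 groups did not overlap. The summed trNK markers also moved with the groups, at 977 and 873 RPKM in the control, 331 and 360 with IL-21, and 248 and 258 with Stattic, and their part in the Bcl3 level was not tested. IL-21 against control gave a log2 fold change of 3.29 (SE 0.46, adjusted p = 0.0419), and Bcl3 was the 1 called gene of the 6 tested, where 0.289% of all 4158 genes were called. The filter was passed through the IL-21 group alone, so the gene could be tested only because it was high there. The call was lost, at an adjusted p of up to 0.217, when any control or IL-21 library or Stattic replicate 1 was left out, while the log2 fold change stayed between 3.03 and 3.55. With a replicate block it was lost too (adjusted p = 0.175), as it was with filterByExpr (0.264) and with only the groups compared in the fit (0.0514).

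With Stattic added to IL-21, Bcl3 was 1.64 lower on the log2 scale (SE 0.43, adjusted p = 0.0986) than with IL-21 alone and 1.64 higher (SE 0.43, adjusted p = 0.0767) than in the control. Neither passed the test. For Stattic against IL-21, edgeR called 0 of 6 genes of the list (2.96% of all genes), with 1 at an unadjusted p below 0.05, and DESeq2 called Bcl3. For Stattic against the control it called 0 of 6 (4.74% of all genes), with 2 at an unadjusted p below 0.05, and DESeq2 called both (Bcl3 and Nfkbid). Nfkbid stood highest with Stattic, at 45.8 and 26.3 RPKM against 5.59 and 16.7 in the control and 14.4 and 18.6 with IL-21. Its log2 fold change from the control was 1.70 (SE 0.58, adjusted p = 0.141). The genes of the digestion list also stood highest there, at a summed 1410 and 1100 RPKM. They were at 143 and 261 in the control and 204 and 413 with IL-21, and their part in the Nfkbid level was not tested. The name is that of the list only, since the cells of all groups had left the tissue before this culture. Of the 11 genes of that list tested, 2 were called higher with Stattic than with IL-21 alone, the heat shock genes Hspa1a (9.64) and Hspa1b (8.79). Against the control 3 were, these and Atf3 (6.03). Egr1 (−0.74), Jund (−0.20) and Junb (−0.04) were not higher than with IL-21.

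No other gene tested was called for IL-21 or Stattic in this culture. Nfkbia was 137 and 124 RPKM in the control, 92.2 and 152 with IL-21, and 77.3 and 102 with Stattic. Birc3 was 11.5 and 16.1, then 20.1 and 15.3, then 29.6 and 18.9 in the same order of groups. Nfkb2 and Relb passed the filter through the control alone. Nfkb2 was 17.3 and 24.3 RPKM in the control, 8.42 and 19.8 with IL-21, and 14.6 and 9.545 with Stattic, so that the Stattic libraries were below the control without overlap. The same held for Nfkbia, and Birc3 was above the control without overlap, where 26.1% of all genes tested were lower and 24.9% higher in this way. Relb (5.14 to 25.4 over the 6 libraries) overlapped between all groups. Nfkb1, Rel, Nfkbiz and Tnfaip3 did not pass the filter and were not tested. Nfkb1 was 8.86 and 8.21 in the control and 7.56 and 7.34 with IL-21, and Nfkbiz was 6.24 and 6.30 in the control and 7.20 and 10.07 with IL-21. Neither overlapped, as 20.6% of all genes tested were lower and 17.6% higher without overlap in this comparison, so little can be read from such a gap. Rel (3.01 to 14.7) was highest in both Stattic libraries, and Tnfaip3 (0.926 to 5.62) overlapped between groups. Tnfaip3 was below its lowest level in cells taken from the uterus, 11.3, in all 6 libraries, but these are separate experiments and were not tested against each other.

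Of the other pathway genes, edgeR called 0 of 37 for IL-21 against control (12 at an unadjusted p below 0.05) and 0 for Stattic against IL-21 (10). For Stattic with IL-21 against the control, 4 were higher and 2 were lower, where 2.93% and 1.80% of all genes were, led by the chemokine gene Ccl4 (6.57), Cd27 (−2.91) and Ier3 (2.55). Ccl4 was 27.4 and 11.1 RPKM in the control and 136 and 3523 with Stattic, so its replicates lay far apart.

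In the time course Bcl3 was near 0 in every library without IL-21. Its RPKM was 0.675 and 0 at 0 h, 0.200 and 0.465 at 6 h, 0 and 0.0186 at 24 h, and 0.0491 and 0 at 72 h. With IL-21 it was 0.0918 and 0.291 at 0 h, 10.6 and 20.5 at 6 h, 4.24 and 2.88 at 24 h, and 9.58 and 2.85 at 72 h. From 6 h on, every library with IL-21 was above every library without it. The summed trNK markers were lower with IL-21 from 6 h on, and their part in the Bcl3 level was not tested. They were at 512 and 536 RPKM against 1140 and 1170 at 6 h and 1410 and 1470 against 1760 and 2150 at 72 h, with no overlap at 24 h either.

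Summed over both libraries, Bcl3 had 3839 counts with IL-21 and 117 without it at 6 h, a ratio of 42.6 (exact interval 35.4 to 51.7). At 24 h it had 659 against 2 counts, a ratio of 333 (91.9 to 2760), and at 72 h 988 against 3 counts, a ratio of 324 (111 to 1570). At 0 h it had 44 against 54 counts, a ratio of 0.818 (0.537 to 1.24). These are 95% intervals of depth-scaled ratios. They cover counting error only, since reads amplified by PCR are not independent molecules.

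Against the replicate spread, Bcl3 was called at 72 h alone, with a log2 fold change of 8.01 (SE 2.08, adjusted p = 0.0355), where 8.08% of all 3503 genes tested were called. The fitted values were 5.54 (SE 1.73, adjusted p = 0.172) at 6 h, with 1.97% of all genes called, where DESeq2 and limma called it, and 8.26 (SE 2.13, adjusted p = 0.0862) at 24 h, with 1.66% called, where DESeq2 called it. With a replicate block the call at 72 h was lost (adjusted p = 0.0505), as with filterByExpr (0.061). With only the groups compared in the fit it was lost as well (0.565), while Bcl3 was then called at 6 h (adjusted p = 0.000132) and 24 h (2.85e-06). Fitted fold changes against groups near 0 depend on the prior count and are no bound. At 0 h edgeR called 0 of all genes (0%), with 110 at an unadjusted p below 0.05. The effect of IL-21 at 72 h was not shown to differ from that at 6 h (difference 2.47, SE 2.34, adjusted p = 0.675, 4.17% of all genes called), nor that at 24 h (2.72, SE 2.41, adjusted p = 1.00, 0% called, with 69 genes at an unadjusted p below 0.05). Bcl3 passed the filter only through the 6 h IL-21 group, and its call at 72 h was lost in 10 of the 16 fits that each left out 1 library, namely any library of 6 h or 24 h, 72 h replicate 2 or 72 h IL-21 replicate 1. Over the 16 fits the log2 fold change at 72 h was 6.89 to 12.44, with adjusted p from 0.00787 to 0.0902. At 24 h Bcl3 was called when any library of 0 h or 72 h without IL-21 was left out.

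**Figure D3:**
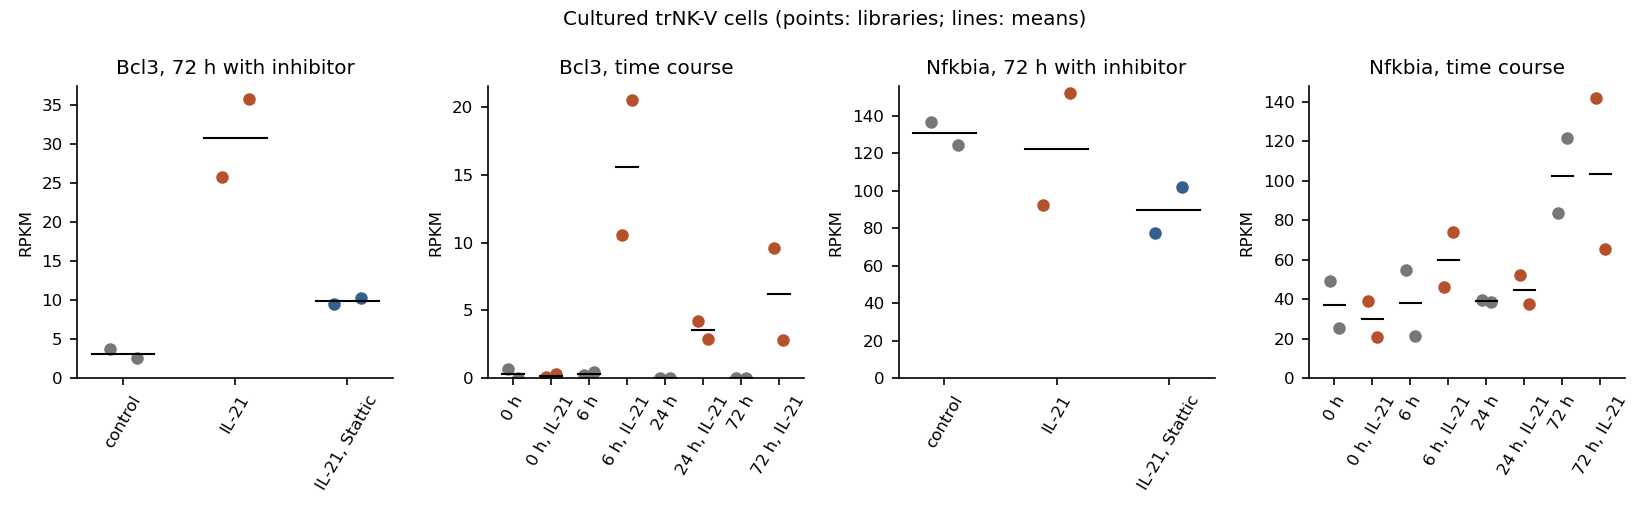
RPKM (vertical axes, linear, from 0) of Bcl3 and Nfkbia in the inhibitor experiment and in the time course; grey points are libraries without IL-21, orange points with IL-21 and blue points with IL-21 and Stattic, and lines are means of 2 libraries. Bcl3 is at 25.7 and 35.7 with IL-21 against 3.67 and 2.62 without it, and reaches 10.6 and 20.5 at 6 h of the time course, while Nfkbia overlaps between cultures with and without IL-21 at each time.

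Nfkbia was the other gene tested in the time course. It ran from 20.9 to 142 RPKM over the 16 libraries, and its change with IL-21 was 0.66 at 6 h, 0.20 at 24 h and 0.01 at 72 h on the log2 scale, with overlap at each time. Without IL-21 it was 39.8 and 38.6 RPKM at 24 h and 83.5 and 121.9 at 72 h, a log2 fold change of 1.39 (SE 0.55, adjusted p = 0.106) that edgeR did not call, where 14.8% of all genes were. DESeq2 called 1 of the 2 genes tested in this comparison. From 0 to 6 h without IL-21 no gene was called (0%, with 106 at an unadjusted p below 0.05), and from 6 to 24 h 0.0856% were.

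The other 8 genes were not tested, since none was above the minimum in both libraries of a group. Nfkb1 was at most 7.14 RPKM, Nfkb2 2.92, Relb 1.67, Birc3 7.39 and Rel 8.85. Nfkbid reached 15.6, Nfkbiz 12.9 and Tnfaip3 11.3, above the minimum in 1 library of a group but not in both. Some of the 8 nonetheless differed without overlap between cultures with and without IL-21, with no test. At 72 h Nfkb2 was 2.92 and 1.82 RPKM with IL-21 against 0.604 and 0.219 without it, and Birc3 was 7.39 and 4.345 against 2.40 and 1.01. Nfkb1 was 2.42 and 0.427 with IL-21 against 3.06 and 7.14 without it. In this comparison 22.6% of all genes tested were higher and 16.4% lower without overlap, so these gaps are near the background. At 6 h Birc3 was again higher with IL-21, at 5.12 and 5.51 against 5.02 and 2.09, and Rel was too, at 3.23 and 2.86 against 2.24 and 1.755, where 28.8% of all genes tested were higher and 29.8% lower without overlap. Nfkb1 was lower at 6 h, at 3.735 and 3.76 against 4.62 and 3.94. Tnfaip3, the signal-ending enzyme, was lower with IL-21 at 6 h (0.394 and 0.284 against 0.730 and 0.517) and at 24 h (0.722 and 0.7625 against 1.197 and 0.856), and Relb was lower at 24 h (1.06 and 0.252 against 1.403 and 1.09), where 33.1% of all genes tested were lower without overlap. Libraries labelled 0 h also showed such gaps, with Nfkbid at 8.89 and 10.57 with the IL-21 label against 8.72 and 6.895, and Nfkbiz at 2.11 and 1.92 against 2.12 and 2.26, where 17.2% of all genes tested were higher and 14.6% lower without overlap. The 72 h replicates went apart for some: Nfkbiz was 0.662 and 12.9 without IL-21 and 0.986 and 10.3 with it, and Tnfaip3 was 2.06 and 11.3 without it. Summed RPKM of the digestion genes were 22 to 63.3 in the time course. Ltb was the pathway gene called at 6 h (−2.12) and 24 h (−2.06) with IL-21, lower each time among 15 tested, where 1.37% and 1.31% of all genes were. At 72 h Ier3 was, with 301 counts with IL-21 and 0 without it, at least 44.5-fold higher, where 6.57% of all genes were called higher. Without IL-21, Ier3 had gone from 203 counts at 24 h to 0 at 72 h, at least 26.0-fold lower. In that comparison 3 of the 15 were called higher and 2 lower, where 4.97% and 9.82% of all genes were.

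Nfkbia was the only gene of the 10 kept in all 4 experiments, so that a pattern could be compared over all 34 libraries. After each experiment's mean was removed, the genes most like it were Btg1 (Pearson r = 0.765), Asb2 (0.755) and Ccl5 (0.751) among 2661 genes. The points share groups and experiments, and the values are a description.

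The single cells were sorted as live CD45+NK1.1+NKp46+ from uteri pooled from 5 virgin and 2 gd8.5 C57BL/6 mice. The 2 deposited files held the same 15175 cells and no gene in common, and were joined to 35237 genes and 83499186 UMIs. They carry no tag of gestation, so they were 1 sample and no test was possible. Of all cells, 6326 had over 200 and under 2500 UMIs and 4338 of these were kept at a mitochondrial share below 10%, with a median of 1607 UMIs. Clustering without the 10 genes gave 1945 trNK-like cells (44.8%), 832 cNK-like cells (19.2%), 743 macrophage-like, 268 T-like and 234 B-like cells, and fewer of other classes. No ILC1-like class was found under these limits, although the sort would let ILC1 pass. Cxcr6, which ILC1 carry, was at 112, 125 and 194 CPM in 3 of the trNK-like clusters (led by Ier5l, Hspb1 and Cxcl10) against 1.48 in cNK-like cells. With no upper limit on UMIs, 540 cells (4.13%) were ILC1-like, in a cluster with markers of T cells too and 449 CPM of Cxcr6. The trNK-like clusters of that setting were at 1.93 and 13.9 CPM. Whether the 3 clusters named above held ILC1 was not tested. Gzmb, a granule gene of NK cells, was at 892 CPM (UMI counts scaled by the total of the class) in B-like cells, with a median of 1602.5 UMIs, against 3861 in trNK-like cells, with a median of 1589, and 5002 in cNK-like cells. Free RNA and doublets were not removed, and their part in the levels was not tested.

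In trNK-like cells the feedback genes Nfkbia and Tnfaip3 stood highest. Nfkbia was at 462 CPM (exact 95% counting interval 438 to 487) and Tnfaip3 at 443 (420 to 468), followed by the subunit gene Nfkb1 at 243 (226 to 262). Nfkbiz was at 110 CPM (98.8 to 123), Nfkbid at 85.9 (75.8 to 97.0), Nfkb2 at 72.4 (63.2 to 82.7) and Rel at 57.6 (49.4 to 66.8). Birc3 (48.7), Relb (41.8) and Bcl3 (39.8) were lowest, with overlapping intervals. UMIs were counted per molecule, so these CPM are not per length, and the order among genes is that of molecules captured.

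Against the other classes, trNK-like cells held more Nfkb1 than cNK-like cells (166 CPM, 145 to 189), more Nfkb2 (47.4, 36.5 to 60.6) and more Rel (34.8, 25.6 to 46.3). They also held more Nfkbia, at 348 CPM in cNK-like cells (317 to 381), and more Tnfaip3, at 385 (352 to 419). These values cover only cells under 2500 UMIs, and cells with more UMIs were left out. Within trNK-like cells Nfkbia was above the cNK-like level in the clusters led by Hspb1 (689), Cxcl10 (720) and Ier5l (425). It was lower in the other 3 (223 to 330). The intervals of those led by Ccl1 and Gzmf and by Gm26917 overlapped that of cNK-like cells, so no difference is read there. Tnfaip3 was above the cNK-like level in the clusters led by Ier5l (647) and Cxcl10 (692) and lower in the other 4 (184 to 356). Among these 4 the interval of the Hspb1-led cluster overlapped that of cNK-like cells. Relb (33.4), Nfkbid (94.9), Nfkbiz (124), Bcl3 (38.5) and Birc3 (51.9) had intervals that overlapped those of trNK-like cells.

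Several of these differences depended on which cells were kept. With the limits read as genes per cell, 3231 cells were trNK-like and 1019 cNK-like, and Nfkb1 (234 against 160 CPM) and Nfkb2 (59.3 against 40.7) were again higher in trNK-like cells without overlap of intervals. Rel (42.6 against 37.5) and Nfkbia (324 against 344) then overlapped. Tnfaip3 turned around, at 301 CPM in trNK-like cells (291 to 312) against 383 in cNK-like cells (356 to 412). Nfkbiz was lower in trNK-like cells, at 59.8 (55.3 to 64.7) against 142 (126 to 160), as was Nfkbid, at 58.8 (54.3 to 63.6) against 99.6 (86.0 to 115), and Relb was higher, at 40.2 (36.5 to 44.2) against 27.6 (20.7 to 36.2). With no upper limit Nfkbiz (53.95 against 113) and Nfkbid (49.96 against 82.2) were lower as well, and Nfkbia (335 against 306) and Tnfaip3 (332 against 343) overlapped. At a resolution of 0.4 Nfkbiz was lower too (102.5 against 143), while Nfkbia stayed higher (453 against 343.5) and Tnfaip3 overlapped (437 against 390.2).

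Among the remaining classes, macrophage-like cells held 1039 CPM of Nfkbia (980 to 1099) and 588 of Nfkbiz (544 to 634). B-like cells held 163 CPM of Rel (125 to 208) and 166 of Birc3 (127 to 211), and Tnfaip3 was at 103 there (73.9 to 141), below the trNK-like level. These are differences between pools of cells in 1 sample.

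Over the 6 trNK-like clusters Tnfaip3 ranged from 184 to 692 CPM and Nfkb1 from 219 to 318. In the cluster of 721 cells led by Ier5l, Tigit and Xcl1, where Tcf7 was at 231 CPM and Tnfrsf9 at 445, Tnfaip3 was at 647 CPM (602 to 694). In the cluster of 388 cells led by Ccl1, Gzmf, Gzmd and Gzmc, where Tcf7 was at 86.1 and Tnfrsf9 at 1175, Tnfaip3 was at 267 (227 to 311). In these 2 clusters Nfkbia was at 425 (389 to 464) and 330 (286 to 379), Nfkbiz at 107 (89.7 to 128) and 65.01 (46.4 to 88.5), and Nfkb1 at 245 (217 to 274) and 254 (215 to 297). Another cluster of 476 cells was led by Hspb1, Kit and Fosb, with 2624 CPM of Fos against 563 and 401 in the others. It had the most Nfkbia of the 3, 689 CPM (632 to 749), and 164 of Nfkbiz (137 to 194). Its Tnfaip3 level did not follow Fos, and lay below that of the Ier5l-led and above that of the Gzmf-led cluster. The part of digestion in these levels was not tested.

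The other 3 clusters were smaller. That of 42 cells led by Cxcl10 and Ifit1 held 720 CPM of Nfkbia, 692 of Tnfaip3, 194 of Nfkb2 and 125 of Bcl3 (57.0 to 236), against 39.7 of Bcl3 (29.2 to 52.6) in the Ier5l-led cluster. That of 102 cells led by histone genes and Cdk1 held 223 CPM of Nfkbia and 36.0 of Nfkbiz. That of 216 cells led by the non-coding genes Gm26917 and Rmrp had a median of 735 UMIs, and 267 CPM of Nfkbia.

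**Figure D4:**
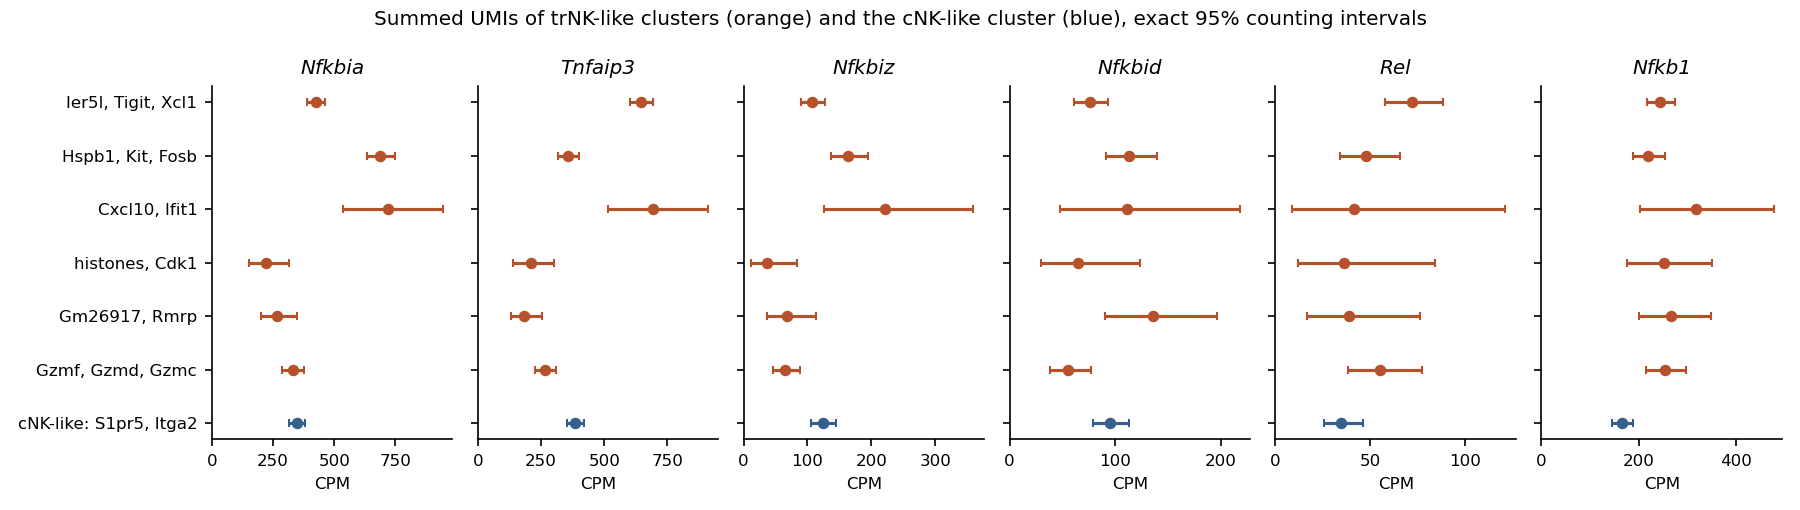
CPM (horizontal axes, linear, from 0) of 6 of the genes in the trNK-like clusters (orange, named by leading genes) and the cNK-like cluster (blue), from UMIs summed over cells; bars are exact 95% intervals for counting error. Tnfaip3 is at 647 in the Ier5l-led and 267 in the Gzmf-led cluster, while Nfkb1 lies between 219 and 318 in all trNK-like clusters.

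The upper limit of 2500 UMIs left out 8849 of the 15175 cells. With the limits read as genes per cell, 8907 cells were kept, and 2 groups of cells with many UMIs formed clusters without a name. In that of 813 cells led by Gzmf, Nfkbia was at 211 CPM, Tnfaip3 at 131, Nfkbid at 33.4, Nfkbiz at 22.7 and Rel at 22, and in that of 636 cells led by Mt2, Ctsg and Scin, with a median of 5705.5 UMIs, they were at 119, 70.1, 11.2, 3.7 and 13.4. Nfkb1 was at 179 and 172. In the same 2 clusters Eomes was at 383 and 411 CPM, and Itga1 (287 and 137) was above Itga2 (8.16 and 1.72). Klrb1c, at 231 and 84.7 against 134 in B-like cells, missed the 2-fold rule for NK genes, so neither was named. The comparisons of trNK-like with cNK-like cells in this setting therefore leave both clusters out. A cluster of 375 cells led by Cxcr6, with markers of both T cells and ILC1, held 632 CPM of Tnfaip3 and 160 of Nfkbiz. A cluster of 67 cells led by Ccl22 and Ccr7 held 466 CPM of Relb and 251 of Rel.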

How the data were processed

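For the bulk libraries, the authors deposited unnormalized read counts for each gene, with its exons (mm10) and counted length. Labels name HISAT2 2.1.0 and featureCounts, whereas the methods name HISAT2 and RSEM, and the cDNA kit is SMART-Seq HT in the methods and a Vazyme single-cell kit in the time course labels. For the single cells, the authors deposited raw UMI counts (GRCm39, BD Rhapsody pipeline).

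Groups and replicate numbers came from the sample labels. RPKM were computed on library totals scaled by TMM. Testing was limited to genes whose 2 libraries of at least 1 group both had an RPKM above 10, and used edgeR 4.0.16 (quasi-likelihood test, R 4.3.3), 1 fit per experiment without covariates, with Benjamini-Hochberg adjustment over all genes kept. The study names limma, and edgeR was used because the values are counts. The test was checked on simulated data. The alternatives were DESeq2 1.42.0, limma 3.58.1, other size factors, filters and samples, a replicate block and leaving out each library.

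Cells were clustered with scanpy 1.11.5 (2000 variable genes without the 10 genes, 20 components, 20 neighbours, resolution 0.8) and named from marker lists. A class gene counted at 3-fold and 10 UMIs, with 3 genes needed and at least 1 among the 10 leading genes, and NK genes counted at 2-fold above B-like cells. These thresholds were chosen with the clusters in view. Cd5, Csf1r and Kdr were in neither file. No doublet caller was run.

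The 10 genes, the other lists and the tests were chosen with earlier results of these data known. The named-gene rule covered all 10 genes, with values for those not tested, the 3 called pathway genes with the largest change, and the 3 genes most like a gene in pattern. Other pathway genes named for trNK-T against trNK-V were chosen after their values were seen.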

Additional observations from a re-analysis of the deposited data

How the results depend on the processing

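Over all 87 changes of the 10 genes tested in the bulk comparisons, 1243 of 1307 alternative values kept their direction. The 64 that reversed belonged to 30 changes, of −0.78 to 1.05 on the log2 scale, of which 0 were called in any setting. Of the 64, 44 came from leaving out 1 library. Scaling by DESeq2's size factors in edgeR changed no call. The numbers of the 10 genes called did depend on the tool. DESeq2 called 1 gene for gd6.5 against virgin, 3 for gd8.5 against virgin, and 1 each for gd8.5 against gd6.5, trNK-D against trNK-V, trNK-T against trNK-D, Stattic with IL-21 against IL-21, IL-21 at 6 h, IL-21 at 24 h and 72 h against 24 h without IL-21, where edgeR called 0. For Stattic with IL-21 against the control DESeq2 called 2. Limma called 1 at 6 h of IL-21.

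Without a filter on low counts, 2 were called for gd6.5 against virgin, 3 for gd8.5 against virgin, 2 for IL-21 at 72 h (Bcl3 and Nfkb1), and 1 each for gd8.5 against gd6.5, trNK-T against trNK-D, Stattic with IL-21 against the control, and IL-21 at 6 h and 24 h. With edgeR's filterByExpr, 1 was called for trNK-T against trNK-V (Nfkbiz), and 0 for IL-21 against control and for IL-21 at 72 h. That filter tests more genes. With only the groups compared in the fit, 1 was called for gd8.5 against gd6.5 and for IL-21 at 6 h and 24 h, and 0 for IL-21 against control (Bcl3 adjusted p = 0.0514) and at 72 h (adjusted p = 0.565). Reversed by other settings were Nfkb1 for gd6.5 against virgin (limma 0.00, filterByExpr 0.02, no filter 0.04) and trNK-T against trNK-D (filterByExpr 0.06, no filter 0.03), Nfkb2 for gd8.5 against gd6.5 (no filter 0.00) and trNK-T against trNK-D (limma −0.01, replicate block 0.00), Relb for trNK-D against trNK-V (filterByExpr 0.05, no filter 0.07), and Bcl3 for IL-21 at 0 h (limma 2.31) and for 6 h against 0 h without IL-21 (DESeq2 −0.01, filterByExpr −0.02, no filter −0.01). Nfkbia reversed for IL-21 at 72 h (DESeq2 and its size factors −0.02, filterByExpr and no filter −0.03, replicate block −0.12) and for 24 h against 6 h without IL-21 (no filter −0.02). Where a cause is not given, the cause was not tested.

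Leaving out 1 library at a time, 0 to 2 were called for gd6.5 against virgin, 0 to 3 for gd8.5 against virgin, 0 to 1 for gd8.5 against gd6.5, 0 to 4 for trNK-T against trNK-V, 0 to 1 for IL-21 against control, and 0 to 1 for IL-21 at 24 h and at 72 h. All other comparisons stayed at 0. Among log2 fold changes that reversed, the ranges for gd6.5 against virgin were −0.17 to 0.17 (Nfkb1) and −0.66 to 0.47 (Nfkb2). For gd8.5 against virgin they were −0.59 to 0.37 (Birc3), −0.65 to 0.48 (Nfkb2), −0.95 to 0.07 (Nfkbia) and −0.30 to 0.34 (Relb), and for gd8.5 against gd6.5 −0.16 to 0.17 (Nfkb2). For trNK-D against trNK-V they were −0.12 to 0.33 (Nfkb1), −0.70 to 0.05 (Nfkb2) and −0.33 to 0.29 (Relb), for trNK-T against trNK-V −1.02 to 0.23 (Nfkb2), and for trNK-T against trNK-D −0.59 to 0.03 (Birc3), −0.23 to 0.22 (Nfkb1), −0.72 to 0.54 (Nfkb2) and −1.70 to 0.13 (Tnfaip3). For IL-21 against control they were −0.50 to 0.25 (Nfkbia), −0.01 to 1.56 (Nfkbid) and −1.44 to 0.54 (Relb), for Stattic against IL-21 −0.71 to 0.52 (Nfkb2) and −0.36 to 1.77 (Relb), and for Stattic against control −0.49 to 0.87 (Relb). For IL-21 at 0 h they were −1.83 to 7.40 (Bcl3) and −0.83 to 0.25 (Nfkbia), and for Nfkbia −0.03 to 0.41 at 24 h, −0.65 to 0.46 at 72 h and −1.24 to 0.07 for 24 h minus 6 h. Without IL-21 they were −1.02 to 8.20 (Bcl3) and −0.78 to 0.60 (Nfkbia) from 0 to 6 h, −0.49 to 0.86 (Nfkbia) from 6 to 24 h, and −3.39 to 4.38 (Bcl3) from 24 to 72 h. A group left with 1 library was assumed to vary like the others.

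Whether same-numbered libraries were paired is not stated in the labels. The correlations of their deviations were above 0.1 in 1 of 3 pairs of groups of the gestation experiment (−0.29 to 0.10). They were above it in 2 of 3 of the subsets (0.01 to 0.40) and 1 of 3 of the inhibitor experiment (−0.51 to 0.60). For the time course it was 11 of 28 (−0.40 to 0.47), and a pairing was neither shown nor excluded. With the replicate block, 0 were called for IL-21 against control (Bcl3 3.28, adjusted p = 0.175) and for IL-21 at 72 h (Bcl3 7.98, adjusted p = 0.0505), and no other count changed.

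In the single cells, where Tnfaip3 turned around between trNK-like and cNK-like cells with limits on genes per cell, the summed level of the 10 genes in trNK-like cells was 1610 CPM, 1190 with limits on genes per cell, 1240 with no upper limit and 1580 at a Leiden resolution of 0.4. Without an upper limit, or with limits on genes, more cells stayed without a name, 44.4% and 32.8% of all. Depth was not varied. In the time course 8 of the 10 genes were too low to be tested.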
